A study of Mus musculus with 3 samples.

Results

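The genes described here encode the proteasome and its regulators in germ cells sorted from the mouse testis. They are the 48 genes, of 22843 in the table, whose symbols run from Psma to Psmg followed by a number and that have at least 1 non-zero cell in each of 3 libraries. All 48 were found in every library, and none was left out. The study knocked down Gm4665, a mouse long non-coding RNA gene, in ICR mice. At postnatal day 21, an AAV9 vector carrying a control hairpin and a red fluorescent protein (AAV9-shCtrl-RFP) was microinjected into the testis of one side, and AAV9-shRNA-RFP, with a hairpin against Gm4665, into the other. After removal of somatic cells, RFP+ germ cells were sorted by flow cytometry and their RNA was sequenced from droplets with 10x Genomics 3' chemistry. The 3 groups were shCtrl, shRNA1 and shRNA2, called the control, hairpin 1 and hairpin 2 here, with 3 mice per condition and 1 library each, and whether all libraries came from the same animals was not stated. All groups share the strain, the vector with its RFP, the surgery and the sort, and the label gives the age at injection and no age at collection.

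The proteasome is the barrel-shaped protease that destroys proteins tagged with ubiquitin. Its core particle is built of alpha rings, which gate the entrance, and beta rings, of which Psmb5, Psmb6 and Psmb7 carry the catalytic sites. A regulatory particle of ATPases (Psmc genes) and non-ATPase subunits (Psmd genes) binds, unfolds and feeds in the substrate, and other caps (Psme genes) open the gate without ubiquitin. Cells exposed to interferon, and leukocytes in general, replace the catalytic subunits by Psmb8, Psmb9 and Psmb10. Meiotic germ cells of mammals exchange the alpha subunit Psma7 for its testis paralogue Psma8, and the cap Psme4 is known for its part in the loss of histones in spermatids.

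There were 1418 cells in the control library, 1732 in that of hairpin 1 and 1873 in that of hairpin 2, and values are given in that order throughout. They summed to 40405313, 38330044 and 44640351 UMIs (unique molecular identifiers, each a captured RNA molecule), with medians of 19366, 14667.5 and 16518 per cell. With 1 library per group there is no replicate and no test, and a hairpin cannot be told apart from anything else that differed between the libraries. Levels are CPM, the UMIs of a gene per 1000000 pooled UMIs of a class, and ranges in parentheses are exact 95% Poisson intervals of these sums, which cover counting error only. Cells were grouped into 19 clusters and named from marker genes, with all proteasome genes and Gm4665 left out of the clustering. Each name stands for cells resembling that type. The libraries held 26, 107 and 127 spermatogonia, 85, 69 and 215 leptotene to zygotene spermatocytes, 85, 200 and 222 pachytene to diplotene spermatocytes, 460, 636 and 589 round spermatids, and 583, 510 and 371 elongating and condensing spermatids. Spermatogonia had fewer than 50 cells in the control and were not compared between libraries. The sorted cells also included leukocytes, which are not germ cells: 14, 59 and 162 cells like lymphocytes and the antibody lineage and 5, 33 and 18 like macrophages. Another 160, 118 and 169 cells lay in clusters with markers of several types and were left unnamed. Between libraries 6, 5 and 7 cell barcodes were shared.

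As a share of the UMIs of a class, proteasome RNA was highest in spermatogonia and lowest in elongating and condensing spermatids. The 48 genes together took 10936, 9954 and 9837 CPM in spermatogonia and 4999, 5184 and 4910 CPM in elongating and condensing spermatids. Without Psma6, Psma8 and the 3 interferon-responsive catalytic subunits, the other 31 subunits of the core and the regulatory particle stood at 9065, 8174 and 8090 CPM in spermatogonia. They stood at 5981, 6493 and 5882 CPM in leptotene to zygotene cells, 5893, 5690 and 5794 CPM in pachytene to diplotene cells and 3575, 4029 and 3881 CPM in round spermatids. In elongating and condensing spermatids 1552, 1766 and 1567 CPM remained. The order of the 5 classes was the same in all 3 libraries. In the last class 14 marker genes of elongating spermatids took 227882, 227538 and 245453 CPM, against 79605, 69761 and 71320 CPM in round spermatids. Their part in the drop was not tested. With the other scaling given below, fewer proteasome genes were lower at that step. Of the 48 genes, 25 had their highest germ class in spermatogonia in all 3 libraries, among them 5 of the alpha subunits (Psma1, Psma2, Psma4, Psma5 and Psma7). For 4 it was leptotene to zygotene cells (Psma3, Psma8, Psmg2 and Psmg3), for 5 pachytene to diplotene cells (Psmb6, Psmc3, Psmd8, Psmd9 and Psmd12), for 1 round spermatids (Psmd10) and for 3 elongating and condensing spermatids (Psma6, Psme3 and Psmf1). The other 10 differed between libraries in their highest class. These differences between classes are descriptions of clusters of the same cells and carry no test.

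**Figure D1:**
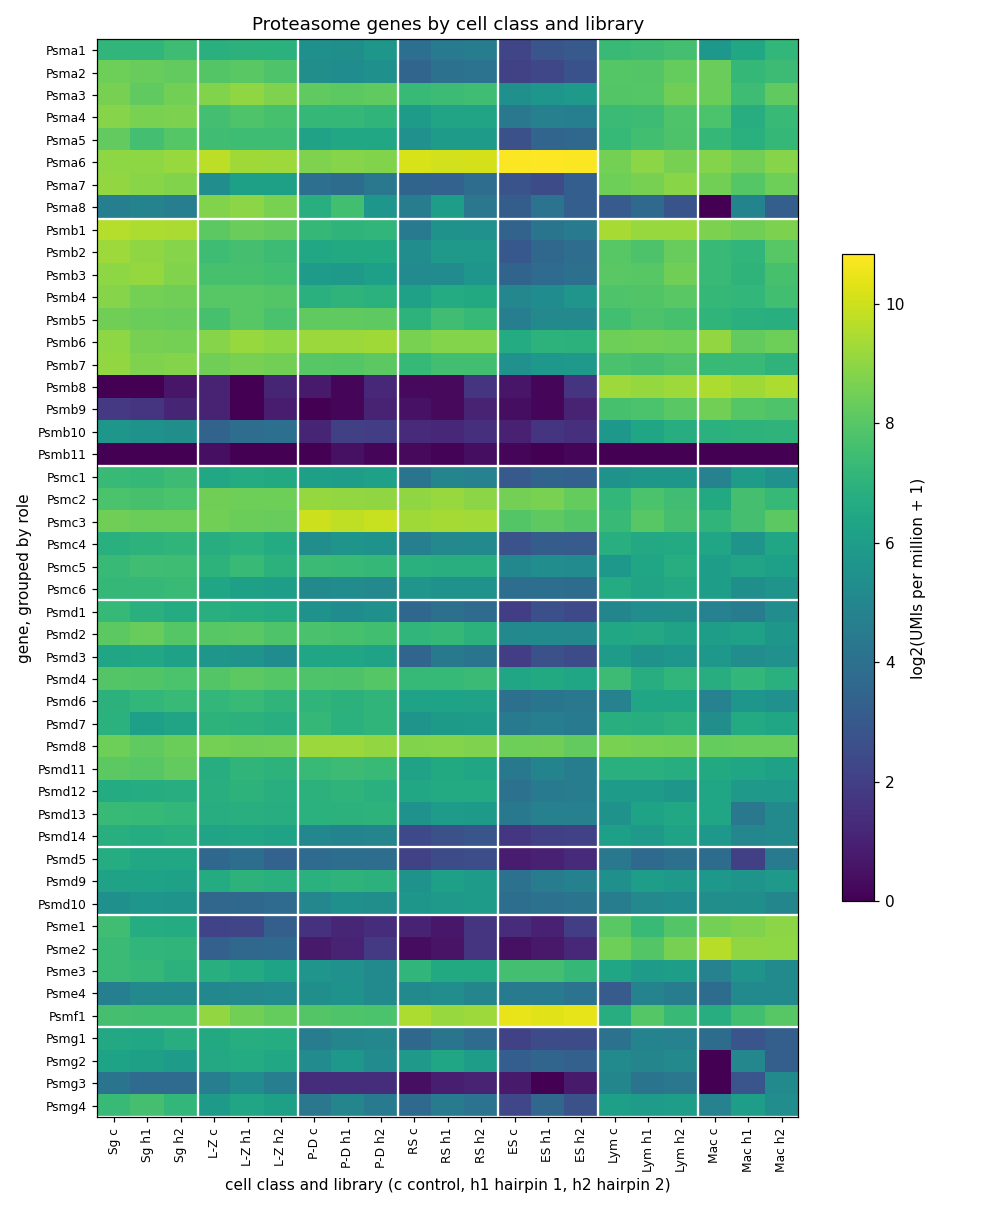
Levels of the 48 proteasome genes, as log2(CPM + 1), in rows grouped by role from alpha subunits at the top to assembly chaperones at the bottom, against columns of 7 cell classes by 3 libraries (Sg spermatogonia, L-Z leptotene to zygotene, P-D pachytene to diplotene, RS round spermatids, ES elongating and condensing spermatids, Lym lymphocytes and antibody lineage, Mac macrophages). Most rows darken from left to right through the 5 germ classes, while Psma6, Psmf1 and Psme3 are brightest in ES, and Psmb8, Psmb9, Psme1 and Psme2 are bright in the leukocytes.

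Psma8, the testis alpha subunit, was the gene with a rise of over 2-fold at entry into meiosis. Entry into meiosis here means the step from spermatogonia to leptotene to zygotene cells. The latter class is cluster 14, with 12 markers of its own list raised and 6 of the pachytene to diplotene list, Piwil1 among them. Its hairpin 1 cells held no Prdm9 UMI. Cluster 8, of 19, 22 and 17 cells with Stra8 and Prdm9 among its leading genes, was left unnamed and is not part of the step. It had 14 markers of the leptotene to zygotene list raised, more than cluster 14, and 10 of the spermatogonia list. Where within early meiosis the rise fell was not settled. Psma8 lies on chromosome 18 at 14706151 to 14762301 on the plus strand (mm10). Its level was 24.6, 28.0 and 24.1 CPM in spermatogonia and 438 (414 to 463), 486 (452 to 522) and 396 (380 to 412) CPM in leptotene to zygotene cells. That was 17.2, 16.8 and 15.8 times higher, on a scale with 1 CPM added, and all 3 libraries showed the step. It was lower in each later class, with 109, 188 and 49.9 CPM in pachytene to diplotene cells, 22.4, 66.7 and 18.8 CPM in round spermatids and 8.05, 16.6 and 8.42 CPM in elongating and condensing spermatids. Lymphocytes and the antibody lineage, which should lack the gene, held 7.67, 11.9 and 6.11 CPM, from 2, 9 and 17 UMIs. Elongating and condensing spermatids had 126, 179 and 72 UMIs, and the part of background RNA in their level was not tested. Macrophages held 0, 9 and 2 Psma8 UMIs of 74564, 315239 and 233022, with hairpin 1 a larger share than in the lymphocytes. At least 1 Psma8 UMI was seen in 90.6%, 95.7% and 94.9% of leptotene to zygotene cells, at median depths of 25640, 18675 and 23762 UMIs, against 14.3%, 15.3% and 10.5% of the lymphocytes, at 15047, 9695 and 13174 UMIs. With every cell thinned to 10000 UMIs the shares were 89.2%, 91.5% and 95% against 7.14%, 11.1% and 4.69%. The thinning left out 70, 530 and 332 shallower cells of the libraries.

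Psma7, the alpha subunit whose place Psma8 takes, ran the other way. It stood at 533 (464 to 609), 475 (440 to 512) and 443 (412 to 475) CPM in spermatogonia and at 38.9 (32.0 to 46.9), 71.1 (58.5 to 85.7) and 71.0 (64.4 to 78.1) CPM in leptotene to zygotene cells. It was thus 13.4, 6.59 and 6.17 times lower there. The level was lower again in pachytene to diplotene cells (14.7, 13.2 and 19.1 CPM), in round spermatids (10.3, 9.57 and 13.8 CPM) and in elongating and condensing spermatids (5.88, 4.53 and 8.54 CPM). Leukocytes held it at a level near that of spermatogonia, 345, 392 and 476 CPM in lymphocytes and 362, 247 and 348 CPM in macrophages. The ratio of Psma8 to Psma7 UMIs went from 0.0461, 0.0591 and 0.0543 in spermatogonia to 11.3, 6.83 and 5.58 in leptotene to zygotene cells. In pachytene to diplotene cells it was 7.42, 14.3 and 2.61. Since capture may differ between the genes, the ratio shows its change between classes and not the share of either subunit.

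**Figure D2:**
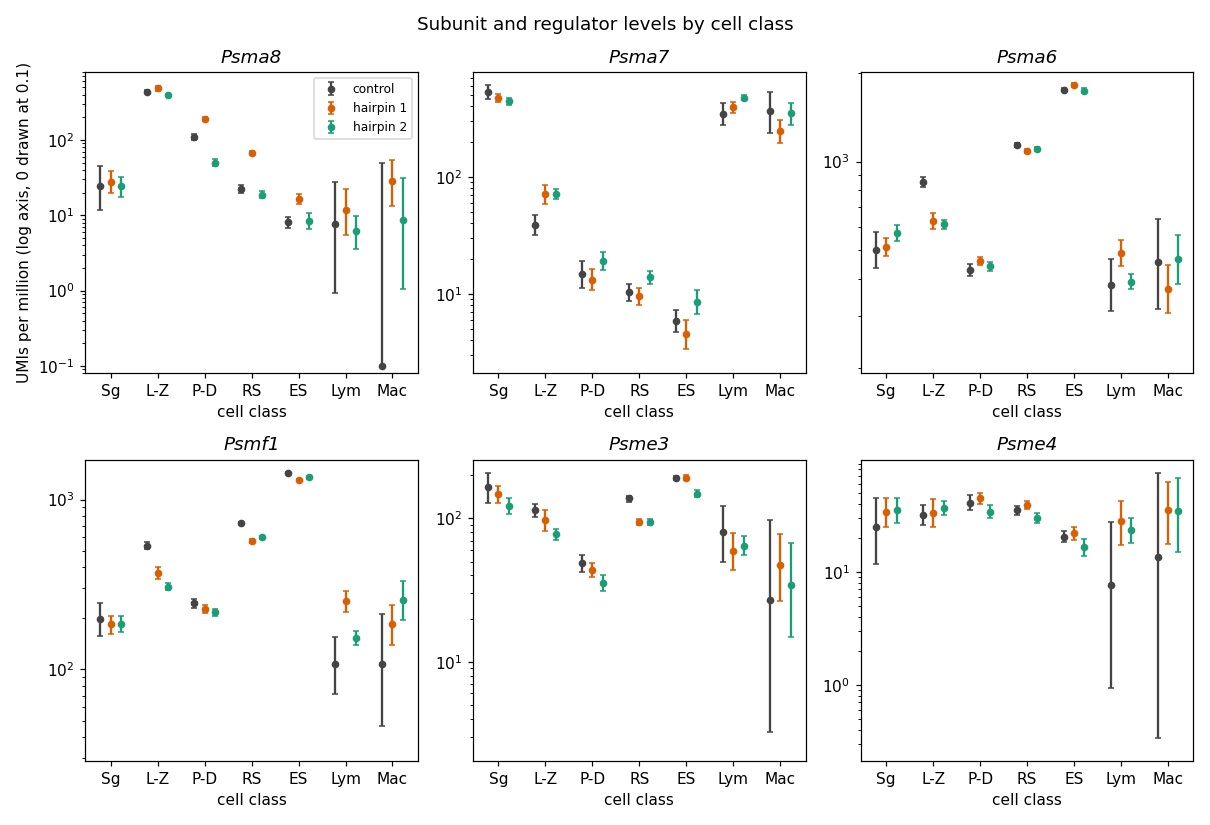
Levels of 6 proteasome genes in CPM (log axes, each panel with its own range) in 5 germ classes and 2 leukocyte classes, abbreviated as in the plot of all genes. Points are the 3 libraries and bars exact 95% Poisson intervals, and a level of 0 is drawn at 0.1. Of the classes shown, Psma8 is highest in leptotene to zygotene cells, at 438, 486 and 396 CPM, where Psma7 is lower than in spermatogonia. Psma6 and Psmf1 are highest in elongating and condensing spermatids.

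Against the general decline in CPM, 3 genes were highest in elongating and condensing spermatids. They were the alpha subunit Psma6, the cap subunit Psme3 (PA28 gamma, a nuclear activator) and Psmf1. Psmf1 (PI31) is described as an inhibitor of the core and as an adaptor in its transport. Psma6 held 430 (411 to 451), 460 (445 to 476) and 441 (426 to 458) CPM in pachytene to diplotene cells, 1137, 1082 and 1104 CPM in round spermatids, and 1749 (1728 to 1770), 1815 (1790 to 1841) and 1741 (1713 to 1769) CPM in the last class. Psmf1 held 245, 226 and 217 CPM, then 726, 571 and 602 CPM, then 1428, 1302 and 1355 CPM over the same classes. Psme3 held 48.7, 43.8 and 35.4 CPM, then 138, 94.5 and 94.4 CPM, then 191, 193 and 149 CPM. All 3 genes were lower in pachytene to diplotene cells than in leptotene to zygotene cells and in round spermatids. Psma6 held 854, 629 and 612 CPM in leptotene to zygotene cells. Summed elongating spermatid markers were 71873, 44280 and 41770 CPM there and 23418, 18414 and 19354 CPM in pachytene to diplotene cells. Their part in this dip was not tested. The core subunit Psma7 did not share this course, and the ratio of Psma6 to Psma7 UMIs went from 0.940, 1.08 and 1.29 in spermatogonia to 298, 400 and 204 in elongating and condensing spermatids. None of the 3 overlaps an exon of another gene or has a near-identical copy in the annotation used.

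The sequences before the start sites are shown because Psma6, Psmf1 and Psme3 were highest late and Psma7 early. RefSeq (GRCm38.p6) gives Psma6 a pair of starts, 14603 bases apart. The 250 bases before each start are given 5' to 3' on the gene's strand, with CCAAT, or ATTGG where it lies on the other strand, in capitals.
Psma6, upstream start (chr12:55383972-55384221, plus strand): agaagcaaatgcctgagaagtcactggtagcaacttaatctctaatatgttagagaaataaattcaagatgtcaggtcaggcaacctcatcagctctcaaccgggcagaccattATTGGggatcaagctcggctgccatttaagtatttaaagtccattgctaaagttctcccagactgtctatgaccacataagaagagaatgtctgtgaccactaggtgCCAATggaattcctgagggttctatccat
Psma6, downstream start (chr12:55398575-55398824, plus strand): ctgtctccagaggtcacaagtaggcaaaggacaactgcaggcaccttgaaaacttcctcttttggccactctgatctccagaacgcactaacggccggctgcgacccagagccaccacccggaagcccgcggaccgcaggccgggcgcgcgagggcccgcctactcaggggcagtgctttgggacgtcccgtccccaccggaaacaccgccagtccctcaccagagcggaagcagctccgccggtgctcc
Psmf1 (chr2:151741311-151741560, minus strand): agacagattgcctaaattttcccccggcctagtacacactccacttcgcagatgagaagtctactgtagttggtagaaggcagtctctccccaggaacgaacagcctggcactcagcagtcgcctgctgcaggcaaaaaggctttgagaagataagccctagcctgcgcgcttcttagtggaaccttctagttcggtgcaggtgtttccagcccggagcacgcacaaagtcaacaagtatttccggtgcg
Psme3 (chr11:101315963-101316212, plus strand): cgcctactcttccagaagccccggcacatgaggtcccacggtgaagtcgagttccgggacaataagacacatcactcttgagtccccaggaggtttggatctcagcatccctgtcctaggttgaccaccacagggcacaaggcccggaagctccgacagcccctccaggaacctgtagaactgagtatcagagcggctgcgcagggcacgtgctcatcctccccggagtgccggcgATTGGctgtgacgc
Psma7 (chr2:180042465-180042714, minus strand): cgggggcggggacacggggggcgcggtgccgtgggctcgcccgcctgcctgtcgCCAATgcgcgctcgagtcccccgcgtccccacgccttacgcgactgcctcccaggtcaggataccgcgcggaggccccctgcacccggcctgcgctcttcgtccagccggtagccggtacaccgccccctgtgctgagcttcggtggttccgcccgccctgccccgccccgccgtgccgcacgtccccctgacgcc
The upstream start of Psma6 has 42.8% G and C, 2 CpG pairs and 2 CCAAT matches, and the downstream start 65.6%, 20 CpG pairs and no CCAAT match. The medians over all promoters of the table were 52.4% and 6 CpG pairs. Psma7 has 77.2% G and C with 35 CpG pairs and 1 CCAAT match. Psmf1 has 53.2% with 11 CpG pairs and no match, and Psme3 60.8% with 14 CpG pairs and 1 match. The 3' tags do not tell which Psma6 start was used. RefSeq windows of 300 bases (250 before and 50 after the start) were at hand for 43 promoters of 40 of the 48 genes. CCAAT, on either strand, was in 14 of the 43 (32.6%) and in 37.4% of all 32851 windows. The antioxidant response core TGACNNNGC was in 6 (14.0%, against 12.4%), the cAMP response letters TGACGTCA in none (against 1.79%) and a core of the interferon-stimulated response element in 5 (11.6%, against 3.44%), those of Psmb3, Psmd4, Psmd9, Psme1 and Psmg4. All were searched on both strands, and a match is a description of these windows only.

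Counted by steps of at least 2-fold in the same direction in all 3 libraries, entry into meiosis set 10 of 45 genes lower and 1 higher, Psma8. Over all genes compared the same step set 20.8% lower and 9.54% higher. The 10 were Psma7, the beta subunits Psmb1, Psmb2, Psmb3 and Psmb10, the assembly chaperones Psmd5, Psmd10 and Psmg4, and the cap subunits Psme1 and Psme2. From there to pachytene to diplotene cells 13 of 42 genes were lower (21.2% of all genes) and 2 higher (17.5%). The 2 were the ATPase Psmc3, at 364, 337 and 316 and then 1014, 886 and 963 CPM, and Psmd10 (gankyrin), at 10.9, 11.5 and 12.6 and then 31.6, 42.8 and 39.2 CPM. Both had values in the later class above every value of the earlier one. To round spermatids 9 of 40 were lower (17.8%) and 3 higher (22.6%), the 3 late genes above. From round to elongating and condensing spermatids 26 of 35 were lower (45.5%) and 0 higher (4.86%). From pachytene to diplotene cells to the last class 34 of 40 genes were lower (55.1%) and 3 higher (18.0%), Psma6, Psme3 and Psmf1 again. With TMM factors (scaling by a trimmed mean of gene ratios) over the class sums, the step from round to elongating spermatids set 7 of 35 genes lower (15% of all genes) and 3 higher (16.8%). Without the control, whose spermatogonia were few, entry into meiosis set 11 lower and 1 higher, an alternative chosen after seeing the data. No share of all genes is given for it.

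By role, the genes lower at entry into meiosis held 4 beta subunits and 1 alpha subunit, and no ATPase or non-ATPase subunit. The 6 ATPases summed to 1154, 1146 and 1192 CPM in spermatogonia, 1123, 1131 and 1050 CPM in leptotene to zygotene cells and 1877, 1729 and 1779 CPM in pachytene to diplotene cells. The 8 alpha subunits summed to 2692, 2363 and 2540, then 2507, 2513 and 2230, then 1146, 1247 and 1114 CPM over the same classes. The 11 beta genes summed to 3831, 3374 and 3129, then 1947, 2211 and 1990, then 1542, 1532 and 1602 CPM. Within the ATPases the members differed. Psmc2, for example, was at 219, 205 and 215 CPM in spermatogonia and 523, 565 and 485 CPM in round spermatids, while Psmc1 was at 160, 147 and 169 and then 16.8, 29.0 and 26.9 CPM. Psmd8, a lid subunit, stayed between 292 and 594 CPM in all 5 classes. Psmd14, the deubiquitinase of the lid, went from 111, 102 and 112 CPM in spermatogonia to 2.24, 3.15 and 3.39 CPM in elongating and condensing spermatids. Subunits of 1 complex thus had unequal courses of their RNAs.

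The constitutive catalytic subunits followed different courses. Psmb6 (the caspase-like site) was highest in pachytene to diplotene cells, at 587, 581 and 614 CPM, against 513, 386 and 374 CPM in spermatogonia and 101, 126 and 122 CPM in elongating and condensing spermatids. Psmb5 (the chymotrypsin-like site) went from 351, 339 and 320 CPM in spermatogonia to 287, 286 and 282 CPM in pachytene to diplotene cells and 23.7, 33.7 and 33.0 CPM in the last class. Psmb7 (the trypsin-like site) went from 538, 428 and 449 to 260, 253 and 276 and 43.3, 53.9 and 55.4 CPM. The cap Psme4 (PA200) had no 2-fold step between neighbouring classes in all 3 libraries. It held 24.6, 33.7 and 35.0 CPM in spermatogonia, 31.9, 33.3 and 36.7 in leptotene to zygotene cells, 40.8, 44.4 and 33.9 in pachytene to diplotene cells, 34.9, 38.6 and 29.8 in round spermatids and 20.4, 21.9 and 16.4 in elongating and condensing spermatids. The ratio of Psmf1 to Psme4 UMIs went from 6.01, 5.10 and 6.39 in pachytene to diplotene cells to 70.1, 59.4 and 82.8 in the last class. Over the 15 sums of 5 germ classes by 3 libraries, the genes with the course most like that of Psme4 were Gtf2f1 (Pearson's r of log2 levels 0.954), Cdk5rap2 (0.941), Ipo4 (0.938), Hdlbp (0.935) and Rnf14 (0.925). For Psma8 they were Ube2m (0.976), Tdrd12 (0.966), Sepw1 (0.955), Mtl5 (0.954) and Tusc1 (0.952). These sums share libraries and depth, and r is given as a description.

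Psmb8 and Psmb9 had their high levels in the leukocytes. Psmb8 held 606, 559 and 608 CPM in lymphocytes and the antibody lineage and 711, 619 and 730 CPM in macrophages. In spermatogonia it held 0, 0 and 0.573 CPM, and in round spermatids 0.215, 0.208 and 2.13 CPM. At least 1 Psmb8 UMI was seen in 100%, 93.2% and 96.3% of the lymphocytes and in 0.652%, 0.472% and 5.43% of round spermatids, at median depths of 15706, 11967 and 14829 UMIs. Thinned to 10000 UMIs, round spermatids gave 0.235%, 0% and 2.94%. Of the spermatogonia 0 of 26, 0 of 107 and 1 of 127 had a Psmb8 UMI, at median depths of 13892, 12820 and 12564 UMIs. This allows up to 13.2%, 3.39% and 4.31% of cells with a captured UMI (exact binomial), and does not limit the share of cells that express the gene. Psmb9 held 203, 216 and 268 CPM in lymphocytes and at most 2.46 CPM in any germ class of any library. Round spermatids with a Psmb8 UMI were thus most frequent in the library with the most leukocytes, hairpin 2, whose summed lymphocyte marker genes in round spermatids were 162 CPM, against 68.9 and 73.6 CPM. That list has 11 genes, of which 2, 2 and 0 were at 0 in these cells, and its part in the Psmb8 values was not tested.

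Psmb10, Psme1 and Psme2 differed from Psmb8 and Psmb9 in that spermatogonia held them too. Psme1 and Psme2 form PA28, the cap that goes with the interferon-responsive core. Psme1 held 179, 104 and 100 CPM in spermatogonia and 3.51, 3.85 and 8.56 CPM in leptotene to zygotene cells. Psme2 held 167, 140 and 135 and then 9.12, 11.5 and 12.1 CPM, and Psmb10 51.6, 45.6 and 39.5 and then 9.82, 13.5 and 14.6 CPM. The spermatogonial values lay above those of the next class in each library for all 3 genes. Summed macrophage markers in the spermatogonia were 2.46, 9.82 and 6.30 CPM and lymphocyte markers 7.37, 30.1 and 94.6 CPM. Psmb8, with 606, 559 and 608 CPM in lymphocytes, was at or near 0 in the same spermatogonia. Psme2 shares 99.0% of its last 400 bases with Psme2b, and Psme1 overlaps an exon of Emc9 on the other strand, so their counts may be shared. Psmb11, the thymus subunit, was at or near 0, with at most 0.421 CPM in any class.

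**Figure D3:**
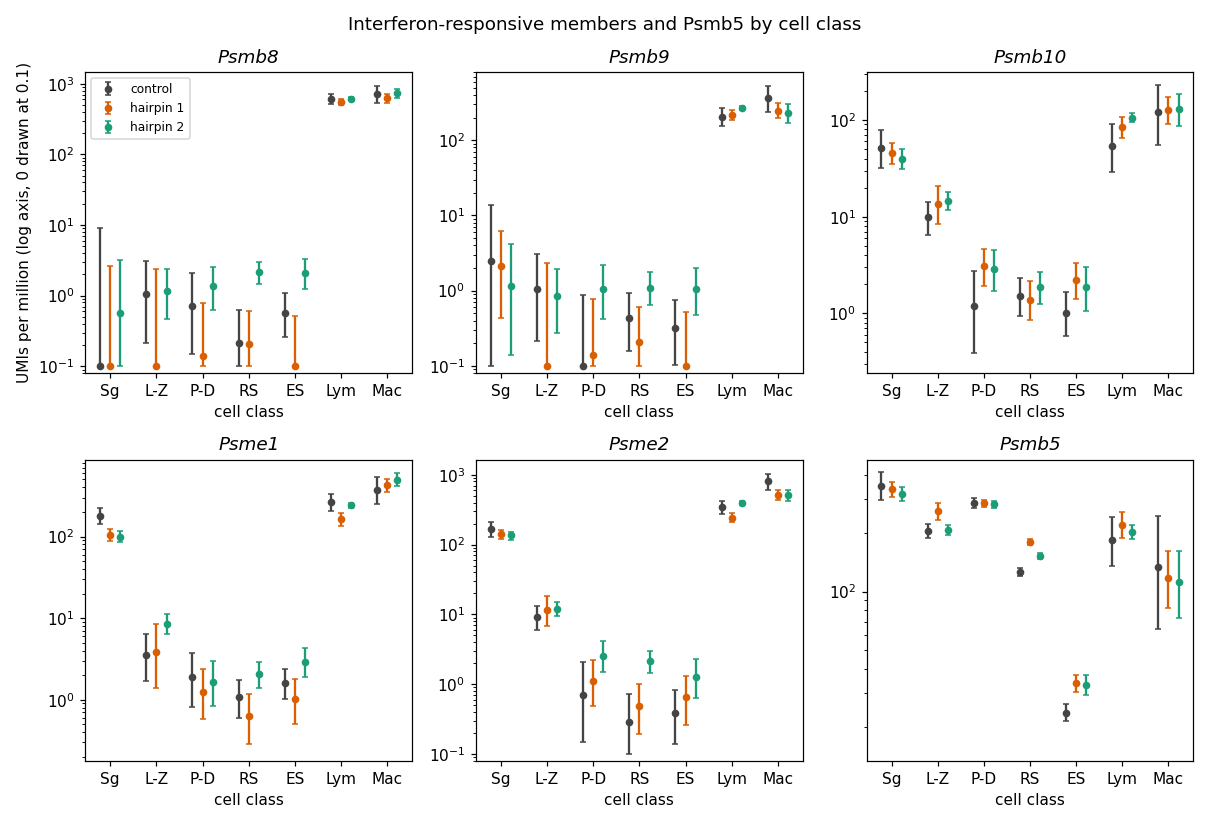
Levels of Psmb8, Psmb9, Psmb10, Psme1, Psme2 and, for comparison, the constitutive Psmb5, in CPM (log axes, each panel with its own range), by cell class and library, with exact 95% Poisson intervals. A level of 0 is drawn at 0.1. Psmb8 and Psmb9 lie above 200 in both leukocyte classes and below 3 in every germ class, whereas Psme1, Psme2 and Psmb10 also have a level of about 40 to 180 in spermatogonia.

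The targeted RNA was checked before the hairpins were compared. Gm4665 was at 311, 52.8 and 79.1 CPM over all cells, which is a log2 fold of -2.54 with hairpin 1 and -1.96 with hairpin 2. It was lower with both hairpins in each of the 4 germ classes compared. Both folds of every gene are taken against the same control library, so they are not independent of each other.

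Over all cells, most proteasome genes were higher with both hairpins. Of the 43 that passed the filter of a mean of 10 CPM and 30 UMIs, 37 were higher with both (86.0%, where 61.0% of all 7068 genes compared were) and 3 were lower with both (where 28.2% were). The 3 were Psma6, Psme3 and Psmf1, the genes of late spermatids. Psmb9, Psmb10, Psmb11, Psmd5 and Psmg3 did not pass the filter. The median log2 fold of the 43 was 0.43 with hairpin 1 and 0.61 with hairpin 2, where the median of all genes was 0.23 and 0.25. At least 1.5-fold higher with both were 10 of 43 (11.4% of all genes), namely Psma7, Psmb1, Psmb2, Psmb5, Psmb8, Psmd3, Psmd9, Psme1, Psme2 and Psmg4, and 0 were lower by as much (4.97%). At least 2-fold higher were Psmb8, Psme2 and Psmg4 (1.23% of all genes) and 0 lower (0.495%).

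Of these 10 genes, 7 (Psma7, Psmb1, Psmb2, Psmb5, Psme1, Psme2 and Psmg4) had their highest germ class in spermatogonia, where 25 of all 48 did. The shares of the classes differed between the libraries, and their part in single folds was not tested. Psmb8 stood at 5.82, 16.7 and 43.9 CPM over all cells and Psme2 at 8.17, 18.5 and 41.4 CPM, in the order of the shares of lymphocytes among the cells, 0.987%, 3.41% and 8.65%. Psma7 stood at 23.8, 44.7 and 77.9 CPM. Of its 960, 1714 and 3479 UMIs, spermatogonia, 1.83%, 6.18% and 6.78% of the cells, held 217, 677 and 773, and the lymphocytes 90, 296 and 1323. Psma6 stood at 1313, 1136 and 1018 CPM, Psmf1 at 961, 702 and 633 CPM and Psme3 at 146, 116 and 94.0 CPM, while elongating and condensing spermatids made up 41.1%, 29.4% and 19.8%. Psmg4, an assembly chaperone of the core, stood at 15, 32.1 and 31.7 CPM. When each class was given its share in the control, 0 of 43 genes were 1.5-fold higher (1.10% of all genes), and the medians were 0.20 and 0.18 (0.10 and 0.07 over all genes). With TMM factors 5 were higher and 2 lower, and the medians were 0.16 and 0.27 where all genes had -0.04 and -0.09. The share of all genes so called with these factors is not given here.

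**Figure D4:**
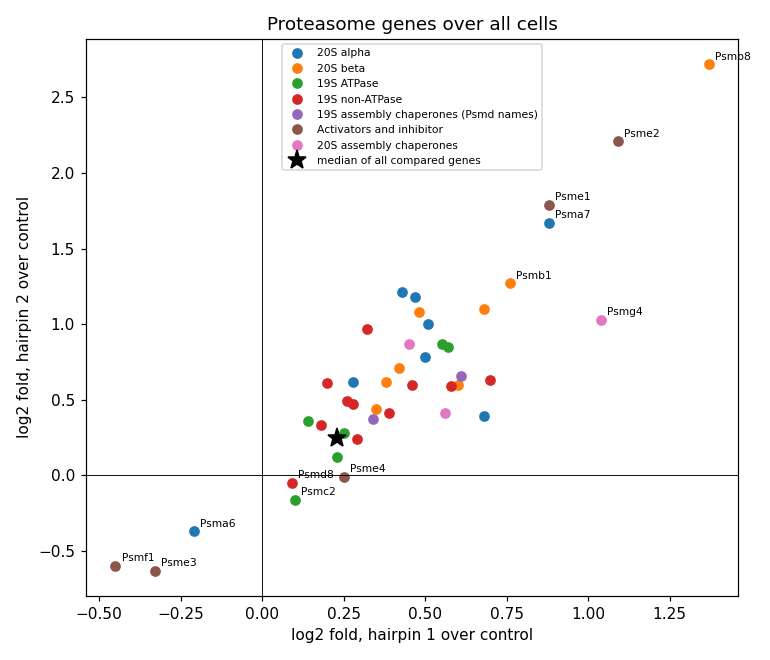
Log2 folds over all cells of the 43 proteasome genes that passed the filter, hairpin 1 over control on the x axis and hairpin 2 over control on the y axis, coloured by role. Both axes share 1 control library, and the star marks the medians of all compared genes at 0.23 and 0.25. Most genes lie in the upper right quadrant, led by Psmb8 and Psme2, and Psma6, Psme3 and Psmf1 lie in the lower left.

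By role, core genes and their assembly chaperones had the higher medians. Of 8 compared beta genes 8 were higher with both hairpins (medians 0.54 and 0.90), and of 8 alpha genes 7 were (0.48 and 0.89), all but Psma6. The 11 non-ATPase subunits had 10 higher (0.29 and 0.49), and the 6 ATPases 5 (0.24 and 0.32), all but Psmc2. The 3 core assembly chaperones compared were higher (0.56 and 0.87), as were the 2 of the regulatory particle (0.47 and 0.52), and the caps with Psmf1 had medians of 0.25 and -0.01. The member with the largest fold common to both hairpins was Psmb8 among the beta genes (1.37 and 2.72), Psma7 among the alpha genes (0.88 and 1.67), Psmd3 among the non-ATPases (0.70 and 0.63) and Psmc1 among the ATPases (0.57 and 0.85). Among the assembly chaperones it was Psmd9 (0.61 and 0.66) and Psmg4 (1.04 and 1.03), and among the caps Psme2 (1.09 and 2.21). With only the cells of the 5 germ classes the hairpin 1 fold of Psmb8 turned to -0.38.

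Within a class of germ cells the genes moved less. In pachytene to diplotene cells 0 of 41 were 1.5-fold from the control with both hairpins in either direction (0.999% of all genes higher and 0.823% lower), and the medians were -0.01 and 0.01. At any size 12 were higher with both (33.9% of all genes) and 14 lower (36.4%). In leptotene to zygotene cells 1 of 44 was, Psma7, higher (2.33% of all genes, against 6.25% lower), and the medians were 0.14 and -0.04. At any size 18 were higher with both (47.2%) and 12 lower (29.2%), among them Psma6, at 854, 629 and 612 CPM, and Psmf1, at 535, 370 and 307 CPM. Psma7 there stood at 1.81 times the control with hairpin 1 (interval of the ratio 1.39 to 2.40) and 1.80 times with hairpin 2 (1.48 to 2.27). The same cells had summed spermatogonial markers of 898, 892 and 865 CPM and summed markers of elongating spermatids of 71873, 44280 and 41770 CPM, and the part of either in these values was not tested.

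Round spermatids had 3 of 39 genes at least 1.5-fold higher with both hairpins (4.77% of all genes) and 0 lower (5.45%). They were Psmb1, at 21.1, 46.0 and 42.9 CPM, Psmd3, at 10.4, 19.7 and 17.3 CPM, and Psmc1, at 16.8, 29.0 and 26.9 CPM. In each the control was the lowest, and the counting intervals of both ratios lay above 1. Psmd3 overlaps an exon of Gm12356 on the other strand, and Psmc1 has a stretch nearly identical to a pseudogene, so their counts are less certain. Over the class 26 of 39 genes were higher with both hairpins (50.7% of all genes) and 5 lower (34.4%), and the medians were 0.30 and 0.21 (0.10 and 0.07 over all genes). Psme3 was lower, at 138, 94.5 and 94.4 CPM, which is 0.690 and 0.688 times the control. The class drew on different clusters in each library: cluster 1 held 235, 152 and 110 of its cells, cluster 4 152, 159 and 277, and cluster 5 49, 243 and 136. Cluster 7 held 24, 82 and 66, with a median of 2.652 times the library's median UMIs per cell. It had 6 pachytene to diplotene and 5 round spermatid markers raised. Psmb1, Psmd3 and Psmc1 were each at least 2-fold lower in round spermatids than in pachytene to diplotene cells in all 3 libraries. The summed pachytene markers of the round spermatid class were 989, 1422 and 1394 CPM. The part of the clusters and of these markers in the values was not tested. With TMM factors 1 gene was 1.5-fold higher and 1 lower, with no share of all genes given.

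Elongating and condensing spermatids had 2 of 28 genes at least 1.5-fold higher (5.71% of all genes) and 0 lower (1.57%). Psmb1 stood at 10.0, 17.6 and 20.7 CPM and Psmb2 at 6.84, 11.2 and 13.8 CPM. Of the 28, 18 were higher with both hairpins (38.4% of all genes) and 2 lower (36.2%), and the medians were 0.24 and 0.24 (0.03 and -0.02). Psma6, Psmf1 and Psme3, which fell over all cells, held 1749, 1815 and 1741, 1428, 1302 and 1355, and 191, 193 and 149 CPM here. For Psma6 the values with the hairpins thus lay on both sides of the control, within 0.05 on the log2 scale. Here too the clusters differed: cluster 3 held 203, 70 and 4 cells and cluster 9 held 23, 164 and 243. Changes of 2-fold with both hairpins were found for 0 of the proteasome genes compared in each of the 4 classes. Over all genes they were 0.224% higher and 0.737% lower in leptotene to zygotene cells, 0.162% each way in pachytene to diplotene cells, 0.361% and 0.647% in round spermatids, and 0.825% and 0.268% in elongating and condensing spermatids.

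Psma8 stood at 54.1, 87.6 and 71.2 CPM over all cells, higher with both hairpins, but within spermatocytes and round spermatids it was higher with hairpin 1 and lower with hairpin 2. In pachytene to diplotene cells it stood at 109 (99.5 to 120), 188 (178 to 199) and 49.9 (44.7 to 55.6) CPM, a log2 fold of 0.78 with hairpin 1 and -1.11 with hairpin 2. In round spermatids it stood at 22.4, 66.7 and 18.8 CPM (1.53 and -0.24), and in leptotene to zygotene cells at 438, 486 and 396 CPM (0.15 and -0.15). Hairpin 1 was above the control and hairpin 2 below it in all 3 classes. Thinned to 10000 UMIs, 63.1%, 80.3% and 37.5% of pachytene to diplotene cells held a Psma8 UMI (unthinned 94.1%, 94.0% and 68.9% at median depths of 48430, 37224 and 23424 UMIs). In the 7 clusters of pachytene to diplotene cells and round spermatids, hairpin 1 was above the control in 7. Hairpin 2 was below hairpin 1 in 7 and below the control in 6. Over 11 clusters, with those of elongating and condensing spermatids added, these counts were 11, 11 and 8. Clusters of the same libraries are not replicates. The lymphocytes, which should lack the gene, had 7.67, 11.9 and 6.11 CPM. Hairpin 1 was highest and hairpin 2 lowest there as well, with wide intervals (0.928 to 27.7, 5.45 to 22.6 and 3.56 to 9.78). Macrophages held 0, 9 and 2 Psma8 UMIs of 74564, 315239 and 233022, and the part of background in the folds was not tested. The summed leptotene to zygotene markers of pachytene to diplotene cells were 780, 916 and 895 CPM, and those of round spermatids 708, 835 and 853 CPM, and their part in the Psma8 values was not tested. Ube2m, the gene most like Psma8 in its course, stood at 237, 260 and 125 CPM in pachytene to diplotene cells and 65.5, 104 and 51.3 CPM in round spermatids. If the columns of the hairpins were exchanged, the directions of hairpin 1 and hairpin 2 would change places.

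**Figure D5:**
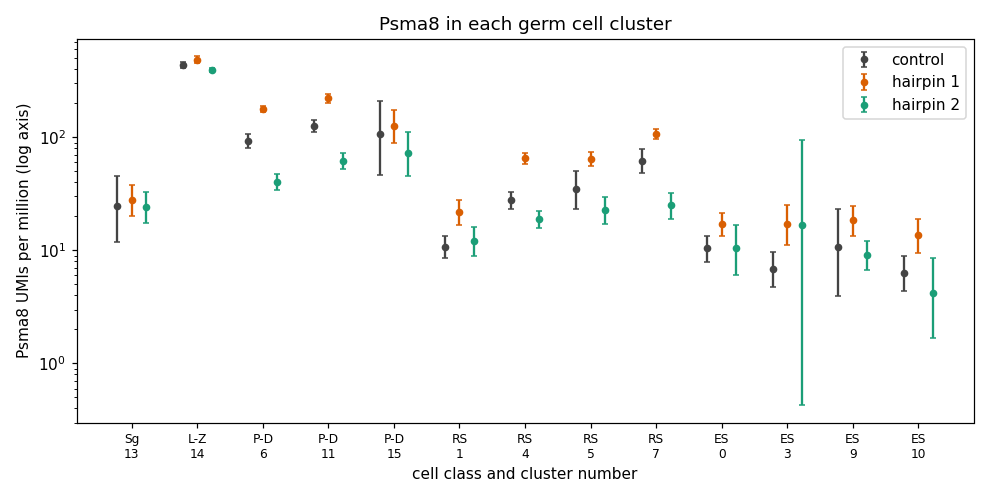
Psma8 in CPM (log axis) in each of the 13 germ cell clusters, ordered by class (abbreviated as in the plot of all genes) and cluster number. Points are the 3 libraries and bars exact 95% Poisson intervals. In the 7 clusters of pachytene to diplotene cells and round spermatids hairpin 1 lies above the control, and in 6 of them hairpin 2 lies below it. With elongating and condensing spermatids added, hairpin 1 lies above the control in 11 of 11 clusters. The part of background RNA in the levels of that last class was not tested.

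Genes that work with the proteasome gave the following counts over all cells, to be set beside the 61.0% higher, the 28.2% lower and the medians of 0.23 and 0.25 over all genes. Of 13 compared partners (receptors, shuttles, deubiquitinases and the assembly factor Pomp) 10 were higher with both hairpins and 1 lower, with medians of 0.36 and 0.40. The largest common fold was that of Shfm1, a lid subunit also called Sem1, at 266, 440 and 476 CPM, and the lower one was Adrm1, a ubiquitin receptor, at 97, 91.8 and 90.7 CPM. Of 9 genes for the extraction of substrates by the ATPase Vcp, 8 were higher and 1 lower (medians 0.38 and 0.51), with Ubxn4 at 111, 179 and 170 CPM and Ufd1l at 140, 116 and 108 CPM. Of 2 compared genes of the transcription list, Ngly1, which processes the proteasome factor Nfe2l1, was lower, at 266, 243 and 216 CPM. Nfe2l1 itself was below the filter, at 5.10, 6.84 and 8.42 CPM. Of 8 class I antigen presentation genes 7 were higher and 1 lower (0.54 and 0.76), led by B2m at 43.0, 174 and 245 CPM, with 4079, 5955 and 3221 CPM in the lymphocytes. The lower one was Tap1, which carries peptides into the endoplasmic reticulum, at 24.0, 1.88 and 4.79 CPM (-3.12 and -2.11).

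For 19 of the 48 genes the counts are less certain. Of these, 13 overlap exons of another gene, and 13 have a stretch nearly identical to another gene in their last 400 bases. For Psmb7, Psmb8, Psmc3 and Psmd1 that other gene is one they overlap. No strand of counting was stated, and whether RNA of a neighbour on the other strand entered these counts was not tested. Psma6, Psma7, Psma8, Psme3, Psme4 and Psmf1 have neither an overlap nor such a stretch. Psmb9 shares its place with Tap1 on the other strand, and Psmb7 overlaps Nek6. The 19 are Psma3, Psma4, Psma5, Psmb3, Psmb5, Psmb7, Psmb8, Psmb9, Psmc1, Psmc3, Psmd1, Psmd2, Psmd3, Psmd9, Psmd11, Psmd13, Psme1, Psme2 and Psmg3.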

How the data were processed

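The authors deposited 1 table on a natural log (ln) scale. From the values, each entry is the ln of a sum, 1 plus the gene's UMIs scaled to 10000 per cell. Cell Ranger 1.3.1, Seurat 2.0.0 and mm10 are named, per the submitters' processing notes. Not given in the sources used here: strand, annotation, cell filter and doublet removal. The last digit alone tied the columns of each knockdown library to shRNA1 or shRNA2.

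All 5023 cells summed to 10000 once the log was undone, and 100.0% of 20140203 non-zero values were whole UMIs within 0.01. These UMIs were summed by class and library and divided by the class total (CPM), and log2 folds used a pseudocount of 1 CPM. Compared genes needed a mean of 10 CPM and 30 UMIs, and classes 50 cells per library. Ratio intervals are Clopper-Pearson intervals of the UMIs of 1 library among those of both. No cell was removed and no doublet caller was run.

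Cells were clustered with scanpy 1.11.5, igraph 0.11.9 and leidenalg 0.10.2 on Python 3.11.15 (2000 variable genes, 30 principal components, 15 neighbours, Leiden resolution 0.8, no batch correction), and a class needed at least 3 markers raised 1.5-fold. Clusters led by markers of another type were left unnamed. Further steps used pandas 2.3.3, scipy 1.17.1, blastn 2.17.0, numpy 2.4.6 and matplotlib 3.10.9. Positions and overlaps are from GENCODE vM21 (mm10), and promoters from RefSeq GRCm38.p6.

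The members, role groups, partner lists and markers were chosen with earlier results of these data known. Named genes are Psma8, Psma7, the catalytic subunits, the caps and Psmf1, the highest, lowest and most changed member per role group, members 2-fold from the control, the most changed gene per direction of each partner list, and the 5 genes most like Psma8 and Psme4. Others were named after their values were seen. Calls rest on size of fold alone. Alternatives were other scalings, filters, pseudocounts, cells and clusterings. Only the computation of folds and their intervals was tested on simulated sums. Proteins were not analysed here, and 1 of the partner lists is not reported here.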

Additional observations from a re-analysis of the deposited data

Results flagged for a closer look

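On the CPM scale 3 members had folds of opposite sign with the hairpins, with the counting intervals of both ratios excluding equality with the control. These differences were not tested, since each group is 1 library. Psma8 had log2 folds of 0.15 with hairpin 1 and -0.15 with hairpin 2 in leptotene to zygotene spermatocytes, 0.78 and -1.11 in pachytene to diplotene spermatocytes and 1.53 and -0.24 in round spermatids. Psmc2, an ATPase of the regulatory particle, had 0.10 and -0.16 over all cells, 0.11 and -0.11 in round spermatids and 0.10 and -0.30 in elongating and condensing spermatids. Psmd8, a lid subunit, had 0.09 and -0.05 over all cells. The opposite signs over all cells rest on the scaling, since with TMM factors Psmc2 had -0.17 and -0.51 and Psmd8 -0.19 and -0.40, lower with both hairpins. Psmc2 with TMM factors had 0.02 and -0.22 in round spermatids and 0.02 and -0.42 in elongating and condensing spermatids. Psma8 kept its signs in all 3 classes with TMM factors (0.07 and -0.20, 0.79 and -1.10, 1.45 and -0.36). Apart from Psma8 in the later classes, the sizes are small, and the intervals cover counting error only.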

How the results depend on the processing

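No paired analysis was possible because each group is 1 library and the numbers 1 and 2 name hairpins. The counts of genes 1.5-fold from the control over all cells (10 higher, 0 lower) and the medians (0.43 and 0.61) depended on the scaling and the mix of cells. They were 5 higher and 2 lower with TMM factors (medians 0.16 and 0.27), and median-of-ratios factors gave 5 and 2 (0.16 and 0.21). With only germ classes 6 were higher. With classes at their control shares 0 were (0.20 and 0.18), and with cells thinned to 10000 UMIs 20 were (0.55 and 0.79). These counts stand without the share of all genes in each setting and show only how they moved with the processing. As differences of mean ln values the medians were 0.08 and 0.15, and in round spermatids 0.03 and 0.06. The hairpin 1 fold of Psmb8 was -0.38 over germ classes and -0.06 at the control shares.

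Within classes, TMM and median-of-ratios factors each gave 1 gene lower in leptotene to zygotene cells, 1 lower in round spermatids and 1 higher in elongating and condensing spermatids, and TMM gave 1 higher in round spermatids. Without a filter 1 gene was higher in pachytene to diplotene cells and 4 in elongating and condensing spermatids. Thinned cells gave 1 higher in pachytene to diplotene cells, and 1 higher and 1 lower in round spermatids. For the steps between classes, TMM factors over the class sums gave 2 genes higher from spermatogonia to leptotene to zygotene cells, 6 lower to pachytene to diplotene cells, 4 lower to round spermatids, and 3 higher and 7 lower to elongating and condensing spermatids. Thinned cells gave 6 lower at the first of these steps and 1 higher at the last. Without the control library (added after seeing the data) the first step gave 1 higher and 11 lower. At Leiden resolution 1.2 no cluster was named leptotene to zygotene, so the steps with that class have no value there. The counts in this paragraph are likewise given without the share of all genes.

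Of the counts and medians recomputed, 138 stayed within the limits set (1.5 times for a count) and 38 did not; for single genes 730 did, 252 did not, and the 2 of Psmb8 above reversed. The cause was not tested, except that weighting the classes by construction removes differences in their shares. Psmb8 and Psmb9 have few UMIs in germ cells, which limits what their shares can show, and the 26 control spermatogonia limit that class.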

Other observations

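Tap1, the peptide transporter gene that shares its place with Psmb9 on the other strand, was seen in control germ cells and hardly in those of the hairpin libraries. It stood at 22.1, 0.140 and 0.452 CPM in pachytene to diplotene cells, 20.3, 0.139 and 0.902 CPM in round spermatids and 29.3, 0.0925 and 0.234 CPM in elongating and condensing spermatids. In lymphocytes, which use the gene, it stood at 34.5, 53.0 and 55.3 CPM. Psmb9 in the same round spermatids was at 0.430, 0.208 and 1.10 CPM.

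Psma6, singled out after its values were seen, followed the course of late spermatid genes over the 15 sums. The genes most like it were Prm3 (Pearson's r 0.993), 1700031P21Rik (0.993), 1700120K04Rik (0.993), Ccdc54 (0.992) and 2810408A11Rik (0.992). Prm3, a gene of the protamine cluster and a marker used to name the class, held 495, 437 and 558 CPM in pachytene to diplotene cells and 3830, 4037 and 4570 CPM in elongating and condensing spermatids.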
